A study of Mus musculus with 4 samples.

Results

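Cytosolic ribosomal protein genes were examined in immortalized mouse embryonic fibroblasts that had lost PTIP. Genes were taken by symbol: Rpl or Rps followed by a number and its usual suffixes, together with Rplp0, Rplp1, Rplp2 and Rpsa, leaving out pseudogenes and the Rps6k kinases. Of 18193 genes with a probe set of their own on the array, 49 fitted, 23 of the small subunit and 26 of the large subunit, and 6 of the 49 are paralogs, expressed copies whose symbols end in l or in l and a digit. Another 40 RefSeq genes with such symbols, 36 of them protein coding, had no probe set annotated to them alone, among them Rplp1, Rpl5 and Rps27a, and no values are given for them singly.

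PTIP -/- cells were PTIP flox/flox fibroblasts infected with a retrovirus expressing Cre recombinase, the enzyme that removes the stretch between loxP sites. PTIP +/+ cells were the same PTIP flox/flox fibroblasts infected with the vector alone, so both carried the floxed alleles, a retroviral infection and puromycin selection in serum-containing medium. Each genotype gave 2 RNAs, numbered 1 and 2, and each RNA was hybridised to 1 Affymetrix array. What the numbers refer to (a culture, an infection, a clone) is not in the labels, so p-values reflect the spread between RNAs that may be technical, and 2 arrays per genotype limit the precision of every value. No promoter is named for the Cre gene in the labels.

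Ribosomal proteins coat and fold the ribosomal RNAs of both ribosomal subunits, and cells make them in nearly equal amounts because each ribosome holds a single copy of most of them. Their genes are strongly transcribed in growing cells, and their mRNAs usually begin with a C followed by a run of C and U letters, the terminal oligopyrimidine tract. Through that tract the mTOR pathway and the RNA-binding protein LARP1 set how actively these mRNAs are translated. PTIP, the product of Paxip1, belongs to the MLL3/MLL4 histone methyltransferase complexes.

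The sequence around the start of transcription shows that tract for some of the genes measured here. RefSeq start sites of build GRCm38.p6 were listed for 43 of the 49 genes. A C at the first transcribed base followed by at least 4 further C or T letters was found for 8 of the 43, 18.6%, against 3.01% of 27025 genes of any kind. The count depends on the listed start being exact to the base, which was not tested. In Rpl12 and Rpl22l1, counted as without the tract, a C and T run begins at base 2. The windows below run from 20 bases before the start to 20 bases after it on the gene's own strand, written 5′ to 3′. The first 7 hold that tract, which is in capitals. They are genes described below that have 1 listed start and the tract at it.
Rps6 (chr4:86857348-86857387, minus strand): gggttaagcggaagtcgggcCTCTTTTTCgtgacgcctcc
Rps10 (chr17:27635225-27635264, minus strand): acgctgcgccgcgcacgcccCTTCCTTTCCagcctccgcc
Rps18 (chr17:33955646-33955685, minus strand): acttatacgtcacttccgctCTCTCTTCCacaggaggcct
Rps27 (chr3:90213629-90213668, minus strand): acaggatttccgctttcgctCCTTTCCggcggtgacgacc
Rpl14 (chr9:120571497-120571536, plus strand): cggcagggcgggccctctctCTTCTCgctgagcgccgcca
Rpl38 (chr11:114668560-114668599, plus strand): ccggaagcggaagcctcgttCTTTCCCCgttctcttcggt
Rplp2 (chr7:141447631-141447670, plus strand): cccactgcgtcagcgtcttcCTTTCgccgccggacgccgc
The next 5 windows belong to genes with the lowest or highest differences between the genotypes. In these the run of C and T nearest to the start is in capitals, and no such tract begins with a C at the listed start itself.
Rps9 (chr7:3704021-3704060, plus strand): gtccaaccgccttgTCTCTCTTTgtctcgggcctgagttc
Rpl12 (chr2:32961692-32961731, plus strand): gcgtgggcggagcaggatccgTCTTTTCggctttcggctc
Rpl22l1 (chr3:28805488-28805527, plus strand): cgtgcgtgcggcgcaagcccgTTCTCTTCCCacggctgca
Rpl27a (chr7:109519175-109519214, plus strand): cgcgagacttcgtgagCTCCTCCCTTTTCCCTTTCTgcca
Rpl39 (chrX:37085203-37085242, minus strand): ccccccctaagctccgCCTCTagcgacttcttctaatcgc

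The arrays bore out the labels. Paxip1 had signals of 43.5 and 74.6 on the arrays of PTIP -/- cells, against 1029.5 and 1040.1 for PTIP +/+ cells (log2 -4.18 ± 0.36, SE), and it too missed the threshold in limma (adjusted p = 0.999). All 10 fibroblast markers looked at, among them Vim and Fn1, were at or above the level filter of 47.68 on all 4 arrays. So were 3 of 5 epithelial markers, Epcam, Krt8 and Krt19, and 1 of 5 endothelial markers, Kdr. The same held for 3 of 5 macrophage markers and 2 of 5 skeletal muscle markers. Epcam had 436.1 and 291.5 in PTIP -/-, against 356.0 and 220.4 in PTIP +/+. Below the filter on all 4 arrays were the epithelial Cdh1, the endothelial Pecam1 and the skeletal muscle Myh3. The summed signal of the 10 fibroblast markers was 168758.8 to 183011.1 in PTIP -/- and 196862.5 to 205550.0 in PTIP +/+, most of it from collagens, Vim, Fn1 and S100a4. A pair of them differed between the replicate numbers in both genotypes. Thy1, a surface protein of many fibroblasts, had 14822.9 in replicate 1 and 1500.7 in replicate 2 of PTIP -/-, against 16080.1 and 239.2 in the same replicates of PTIP +/+. Pdgfra, a growth factor receptor, had 3563.4 and 174.2 in PTIP -/-, against 5010.1 and 583.2 in PTIP +/+. Of 4 fat cell markers measured, Adipoq and Cidec were below the filter on all arrays. Fabp4, a fatty acid carrier, had 16.1 in replicate 1 and 4029.7 in replicate 2 of PTIP -/-, against 60.2 and 3351.8 in PTIP +/+. Lpl, a lipase, showed no such order, with 149.3 and 155.1 in PTIP -/-, against 291.0 and 41.0 in PTIP +/+. The part of these markers in the results below was not tested. The highest signal of any probe set ran from 36579.2 to 40325.4 on the 4 arrays.

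Ribosomal protein genes read a little lower in PTIP -/- than in PTIP +/+ cells, and no single gene passed the test. Of the 47 genes that reached the level filter, 42 had a log2 change below 0, where 43.9% of all 12509 genes tested did. The median over the 47 was -0.18 on the log2 scale, against 0.05 over all genes tested. Of the 47, 38 were lower within both replicate numbers (background 25.8%) and 2, Rpl37 and Rpl39, were higher within both (background 33.9%). Both PTIP -/- arrays lay below both PTIP +/+ arrays for 30 genes, against 12.1% of all genes tested, and above both for Rpl39, against 16.6%. With limma, 0 of the 47 passed at an adjusted p under 0.05, as for all genes (0.00%), and the adjusted p was 0.999 for each gene named. At an unadjusted p under 0.05 limma gave 0 of the 47 lower (background 0.943%) and 0 higher (background 1.34%). In bulk RNA, fewer transcripts per cell and fewer cells making them cannot be told apart.

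Most differences were small, and they differed with the brightness of the probe set. All 36 genes with a mean log2 signal of 13 or more had a change below 0, with a median of -0.19, from -0.54 to -0.02. At a higher cut, the level of the median ribosomal protein gene, 89.7% of 29 other genes were below 0. Of the 11 tested genes below 13, 6 were below 0 and 5 above, with a median of -0.02, and 1 of the 5, Rpl39l, was tested only through a high signal on PTIP -/- replicate 2. The quartiles of the 47 changes were -0.24 and -0.10, while the standard error of the moderated fit had a median of 0.25 and was at least 0.24. At least 1.2-fold lower within both numbers were 6 genes, Rplp2, Rps9, Rpl22l1, Rps6, Rps4l and Rpl14 (background 7.86%), and at least 1.5-fold lower were 0 (background 2.21%). With 2 arrays against 2, the smallest two-sided p that exact permutation allows for 1 gene is 0.333.

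**Figure D1:**
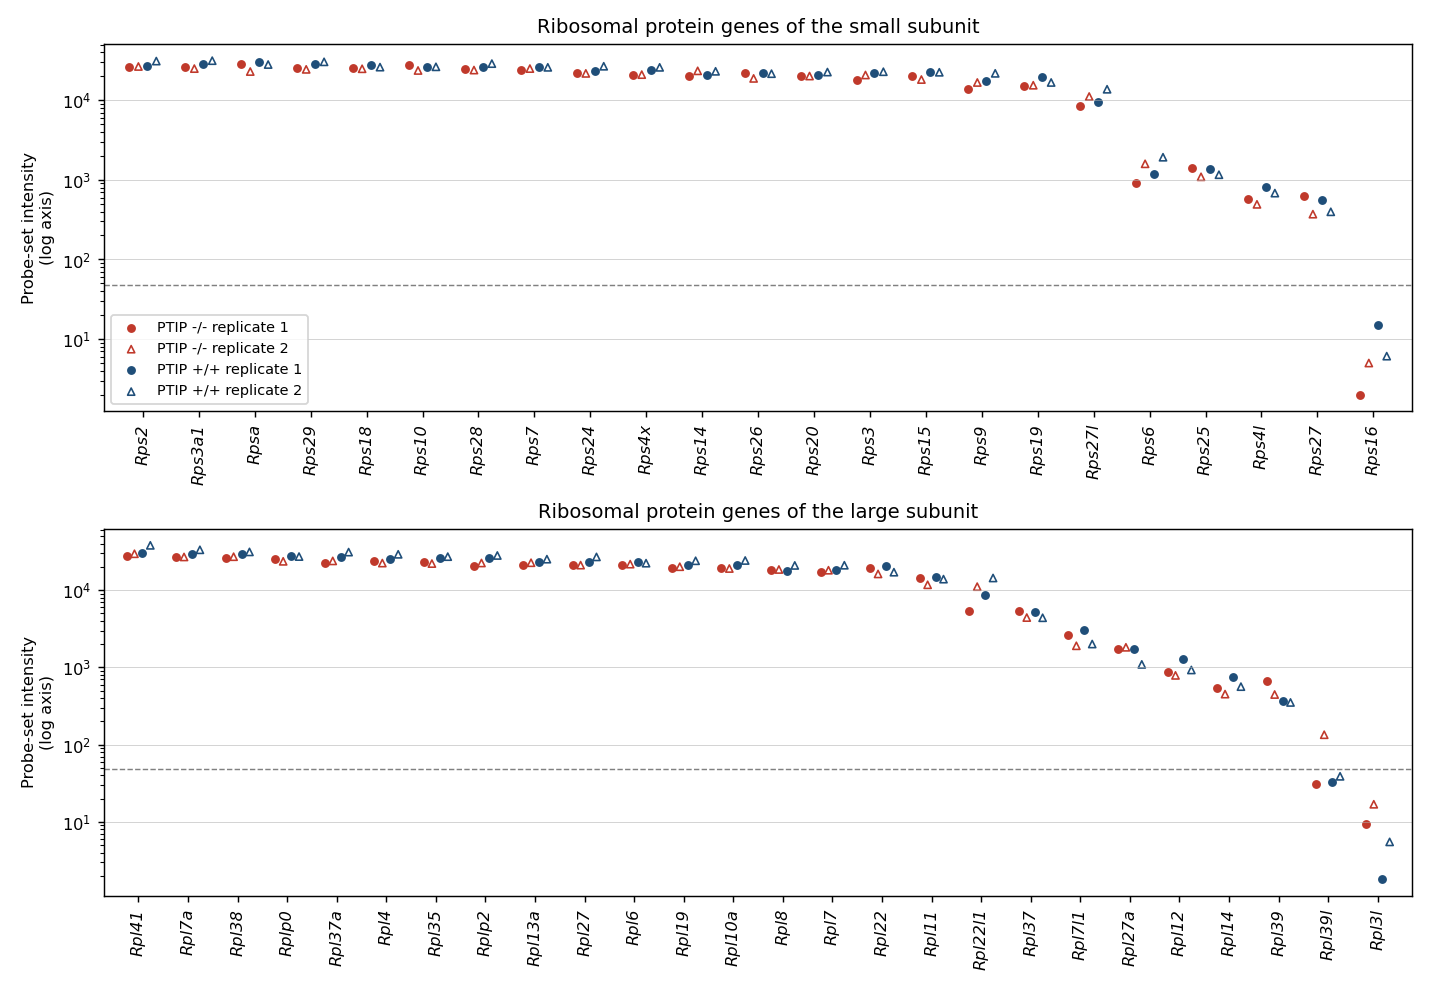
Probe-set intensity (log axis) of the 49 ribosomal protein genes on each array, with PTIP -/- in red, PTIP +/+ in blue, circles for replicate 1 and triangles for replicate 2, and the level filter of 47.68 as a dashed line. Most genes sit in a flat band at the bright end, with the PTIP +/+ points slightly higher, and Rps16 and Rpl3l lie below the filter on all arrays.

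Genes as bright as these also tended to be lower in PTIP -/-. The change of every gene was therefore set against the median change of the 200 other tested genes nearest to it in mean log2 signal. For the typical ribosomal protein gene that median was -0.06 in number 1 and -0.10 in number 2. The genes themselves had medians of -0.12 and -0.23 within the same numbers. Taken gene by gene, the difference from equally bright genes had medians of -0.056 and -0.17, and -0.12 over all arrays. Below their equally bright neighbours within both numbers were 30 of 47 genes, against 29.7% of all genes tested, and above them within both were 3, Rps14, Rpl22 and Rpl39, against 29.3%.

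At the very top of the range few other genes are left to compare with. The neighbours of Rpl41, the brightest member, reached down to 13.44 on the log2 scale, and 32 of the 100 brightest genes on the array were ribosomal protein genes. Only 29 other genes were as bright as the median ribosomal protein gene or brighter, and 89.7% of these had a change below 0, 79.3% were lower within both numbers and 37.9% had both PTIP -/- arrays below both PTIP +/+ arrays. Higher within both numbers were 6.90% of the 29, and 3.45% had both PTIP -/- arrays above both PTIP +/+ arrays. Below their own equally bright neighbours within both numbers were 48.3%, and above them 20.7%. The median change of the 29 was -0.14. Within the numbers it was -0.092 and -0.21, against -0.12 and -0.23 for all 47 ribosomal protein genes tested. Those 47 include 11 genes with a mean log2 signal below 13, so the sets are not matched in brightness. The 36 ribosomal protein genes at 13 or more, a lower cut than that of the 29, had -0.12 and -0.26. Relative to their own neighbours the 29 also stood below 0, at -0.067 over all arrays, against -0.12 for the ribosomal protein genes. With 50 neighbours in place of 200 the median of the ribosomal protein genes relative to their neighbours was -0.089.

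**Figure D2:**
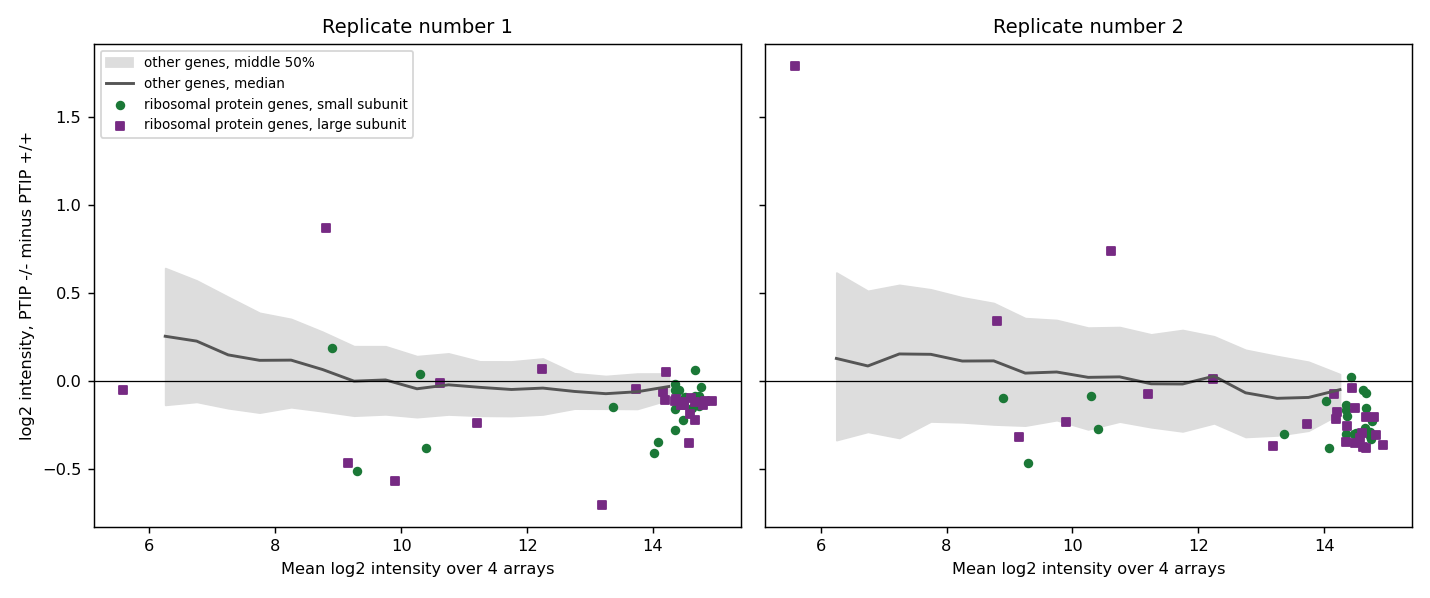
Difference in log2 intensity between PTIP -/- and PTIP +/+ (vertical axis) against mean log2 intensity (horizontal axis) within each replicate number, with small-subunit genes as circles, large-subunit genes as squares, and the median and middle 50% of other genes, in bins of 0.5 with at least 20 genes, as a line and a band. The cluster of bright ribosomal protein genes at the right lies mostly below 0, and lower in number 2 (median -0.23 over the 47 genes) than in number 1 (-0.12).

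The genotype difference was uneven over the arrays. The difference was more negative in number 2 than in number 1 for 32 of the 47 genes, a contrast with 1 array per genotype in each number and no test. The highest of the 4 signals was on PTIP -/- replicate 1 for 5 genes and replicate 2 for 3, against 14 for PTIP +/+ replicate 1 and 25 for replicate 2. The lowest was on PTIP -/- replicate 1 for 21 genes and replicate 2 for 22, against 1 for PTIP +/+ replicate 1 and 3 for replicate 2. Number 2 minus number 1 had a median of -0.0068 in PTIP -/- and 0.10 in PTIP +/+. Without PTIP +/+ replicate 2 the median change relative to equally bright genes was -0.075, against -0.12 with it, and the plain median was -0.12, against -0.18.

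The size also depended on how the arrays were scaled. The 99th percentile of the signals was 11487.4 and 11367.1 on the PTIP -/- arrays and 11874.4 and 12286.1 on the PTIP +/+ arrays, while the median signal was 97.8 and 82.5 on the PTIP -/- arrays and 83.2 and 75.8 on the PTIP +/+ arrays. Quantile normalization, which gives all arrays 1 distribution, brought the median of the ribosomal protein genes to -0.036 and the number lower within both replicate numbers to 21 of 47. Centring each array on its median brought them to -0.36 and 44 of 47, and the median of all genes to -0.13, where it was 0.05 with the arrays as deposited. Relative to equally bright genes the median was -0.084 with quantile normalization. Centring shifts every gene of an array alike, so it could not move that median from the -0.12 of the arrays as deposited.

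**Figure D3:**
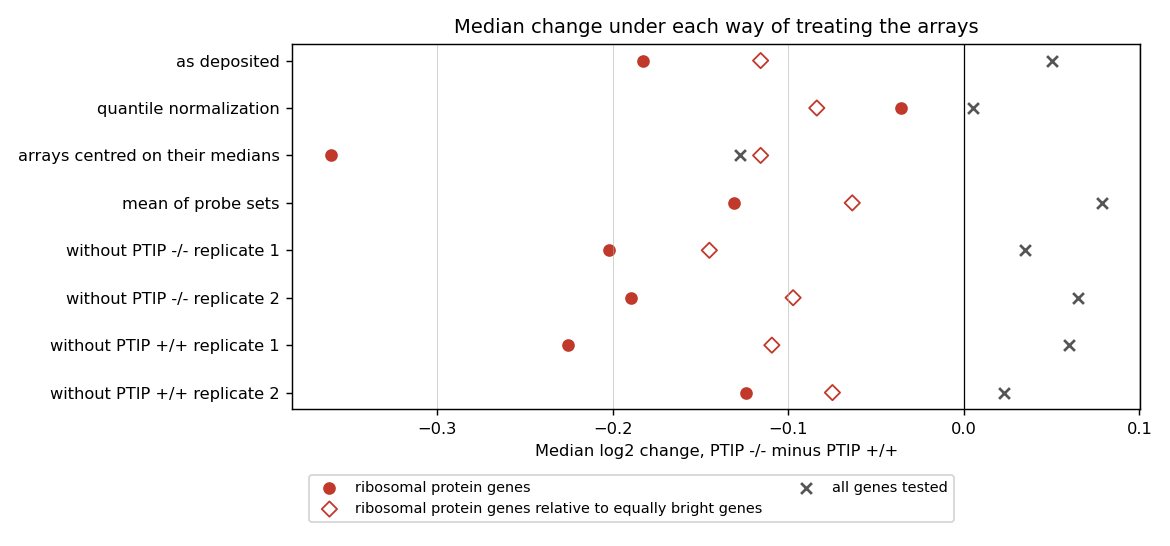
Median log2 change (horizontal axis, PTIP -/- minus PTIP +/+) of the 47 ribosomal protein genes, of the same genes relative to equally bright genes, and of all genes tested, for each treatment of the arrays. The plain median runs from -0.36 with centred arrays to -0.036 with quantile normalization, and the relative one from -0.145 to -0.0636.

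In the small subunit, 21 of the 22 genes tested had a change below 0, with a median of -0.19. Below 0 were 43.9% of all genes tested, and 89.7% of the 29 other genes as bright as the median ribosomal protein gene or brighter. Rps2 and Rps3a1, 2 of the 3 brightest, show the typical pattern. Rps2, which lines the path of the mRNA into the ribosome, read 26430.8 and 26532.6 in PTIP -/-, against 27087.6 and 31039.9 in PTIP +/+ (log2 change -0.13 ± 0.25, SE). Rps3a1 read 26038.0 and 24973.8, against 28224.8 and 31396.4 (-0.22 ± 0.25, SE). Rpsa, which also serves as a laminin receptor, read 28414.3 and 22929.0 in PTIP -/-, against 30151.1 and 28082.3 in PTIP +/+ (-0.19 ± 0.27, SE). The genotypes did not overlap for Rps2 and Rps3a1, whereas PTIP -/- replicate 1 of Rpsa exceeded PTIP +/+ replicate 2.

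The lowest changes of the small subunit were those of Rps4l, Rps9, Rps6, Rps4x and Rps19. Rps4l, a paralog of Rps4x, read 575.2 and 492.3 in PTIP -/-, against 820.2 and 681.5 in PTIP +/+ (log2 -0.49 ± 0.27, SE), with -0.51 in number 1 and -0.47 in number 2. Rps9, which sits near the mRNA entry site, read 13920.7 and 16703.7, against 17686.0 and 21771.4 (-0.36 ± 0.28, SE). Both PTIP -/- arrays lay below both PTIP +/+ arrays for each, by a small margin for Rps9. Its other probe sets disagreed: a dim one read 279.1 and 265.7 against 528.3 and 393.8 (-0.74), and another 4882.1 and 4190.9 against 5367.4 and 3233.2 (0.12).

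Rps6, the ribosomal protein phosphorylated by the S6 kinases downstream of mTOR, read 913.7 and 1590.0 in PTIP -/-, against 1188.1 and 1923.3 in PTIP +/+ (log2 -0.33 ± 0.44, SE). Its signal followed the number more than the genotype, and the genotypes overlapped. A second, dim probe set gave 0.42. Rps4x read 20658.4 and 20974.4, against 24083.2 and 25887.6 (-0.26 ± 0.24, SE), with no overlap. Rps19, the gene most often mutated in Diamond-Blackfan anaemia, an inherited failure of red cell formation, read 14963.3 and 15432.1, against 19848.8 and 16712.2 (-0.26 ± 0.26, SE), and most of its difference lay in number 1 (-0.41, against -0.12 in number 2).

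At the other end of the small subunit the values were close to 0. Rps27, whose own probe set is dim, had the 1 change above 0, at 632.0 and 370.6 in PTIP -/-, against 555.4 and 396.7 in PTIP +/+ (log2 0.04 ± 0.40, SE), and it was -0.018 with quantile normalization and -0.13 with centred arrays. Rps14 read 20280.0 and 23397.6, against 21032.2 and 23083.2 (-0.02 ± 0.26, SE). Both overlapped between genotypes. Rps25 read 1423.3 and 1091.5, against 1383.2 and 1159.8 (-0.02 ± 0.29, SE). Rps10 read 27582.9 and 23643.5, against 26454.8 and 26279.1 (-0.05 ± 0.25, SE), and Rps18 read 25769.5 and 24841.2, against 27358.7 and 26060.0 (-0.08 ± 0.24, SE). Of these, Rps18 alone did not overlap, and Rps14, Rps10 and Rps18 were above 0 with quantile normalization (0.11, 0.12 and 0.070), as was Rps2 (0.045). A further bright probe set of Rps10 read 19524.0 and 7653.3 in PTIP -/-, against 20495.4 and 3947.7 in PTIP +/+, a signal that followed the number. Other probe sets of Rps18 above the filter were all below 0, at -0.24 and -0.28 for bright ones and -0.27 and -0.05 for dim ones.

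In the large subunit, 21 of the 25 genes tested had a change below 0, with a median of -0.17. The shares were 43.9% of all genes tested and 89.7% of the 29 other bright genes. The 3 brightest were Rpl41, Rpl7a and Rpl38, and for each both PTIP -/- arrays lay below both PTIP +/+ arrays. The same held for 12.1% of all genes tested and 37.9% of the 29 other bright genes. Rpl41, which encodes the smallest ribosomal protein, read 28006.1 and 29680.8, against 30281.2 and 38154.0 (log2 -0.24 ± 0.27, SE). Other probe sets of Rpl41, all dimmer, gave -0.29, 0.21 and 0.07. Rpl38, whose loss in mice alters the skeleton and the translation of Hox mRNAs, read 26477.0 and 27177.4, against 29063.5 and 31370.0 (-0.17 ± 0.24, SE). Rpl7a read 27103.5 and 26976.2, against 29299.8 and 33388.3 (-0.21 ± 0.25, SE).

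The stalk of the large subunit, which recruits the elongation factors, was represented by Rplp0, Rplp2 and Rpl12. For all 3, both PTIP -/- arrays lay below both PTIP +/+ arrays, as for 63.8% of the family and 12.1% of all genes. The share was 37.9% among the 29 other genes as bright as the median ribosomal protein gene or brighter, a level that Rpl12 does not reach. Rplp2 read 20578.9 and 22536.3 in PTIP -/-, against 26312.8 and 28189.1 in PTIP +/+ (log2 -0.34 ± 0.25, SE), with -0.35 in number 1 and -0.32 in number 2. Relative to equally bright genes it stood at -0.29 and -0.23. Rplp0, the scaffold of the stalk, read 25447.8 and 23686.8, against 27694.3 and 27299.1 (-0.16 ± 0.24, SE). Rpl12, at the base of the stalk, read 871.0 and 789.0 on a dimmer probe set, against 1293.8 and 927.1 (-0.40 ± 0.30, SE).

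The other low values of the large subunit were those of Rpl22l1, Rpl14 and Rpl37a. Rpl14 read 545.6 and 451.6 in PTIP -/-, against 755.0 and 564.1 in PTIP +/+ (log2 -0.39 ± 0.30, SE), with no overlap. Rpl37a read 22794.2 and 23973.7, against 26586.3 and 31188.5 (-0.30 ± 0.25, SE), also with no overlap. Its other probe sets above the filter were lower too, at -0.36 for 19539.2 and 19876.8 against 22005.7 and 29111.1, and at -0.66 for 839.7 and 1379.9 against 1487.1 and 1956.8. Rpl11, which as part of a small assembly particle binds MDM2 and so stabilises p53, read 14212.6 and 11764.1, against 14662.0 and 13926.7 (-0.14 ± 0.26, SE). Rpl13a, whose protein can leave the ribosome to silence inflammatory mRNAs, read 21101.1 and 22713.8, against 23207.5 and 25261.0 (-0.15 ± 0.25, SE), with no overlap, and was at 0.004 over all arrays with quantile normalization. Other probe sets of Rpl13a gave -0.19, -0.17 and 0.07.

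**Figure D4:**
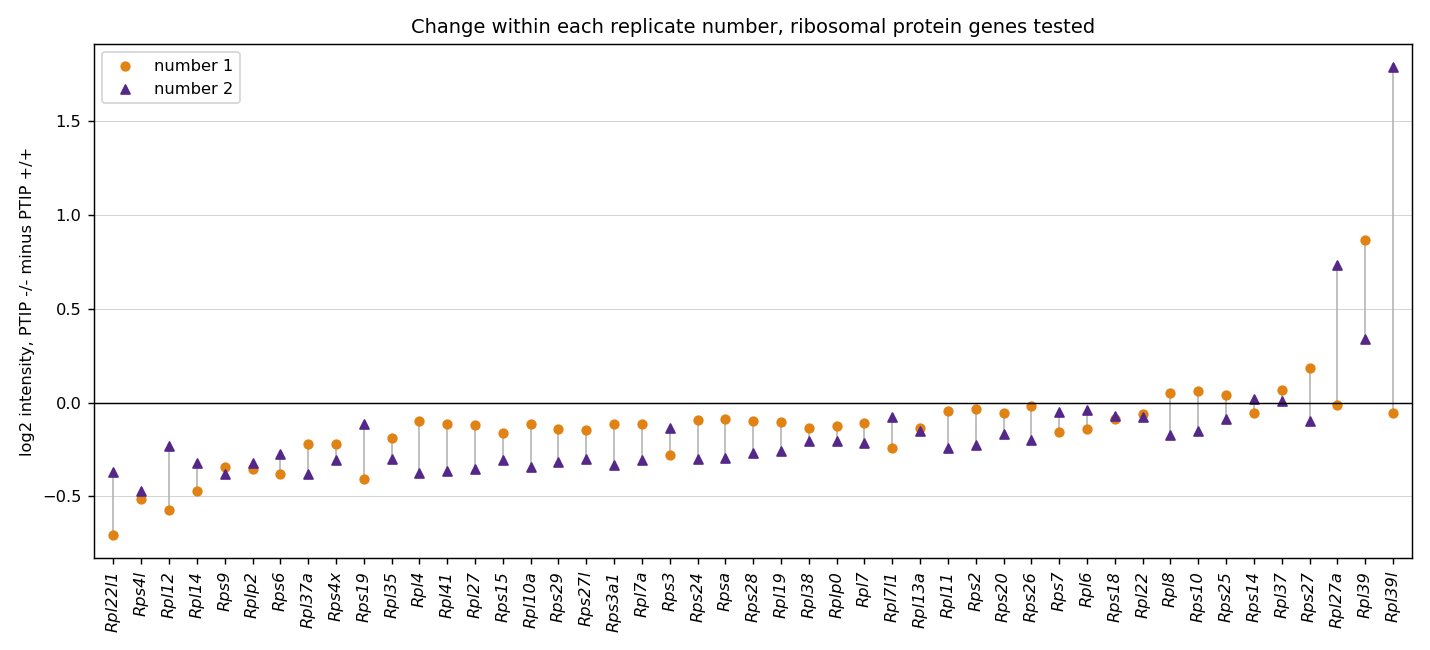
Difference in log2 intensity between PTIP -/- and PTIP +/+ within replicate number 1 (circles) and number 2 (triangles) for each of the 47 genes tested, ordered by their mean change and joined by a grey line. Most genes lie slightly below 0 in both numbers, Rpl22l1, Rps4l, Rpl12 and Rpl14 stand at the low end, and Rpl27a, Rpl39 and Rpl39l at the high end with numbers far apart.

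The highest changes of the large subunit came from probe sets of very different brightness, from the dim one of Rpl39l to the bright one of Rpl8. Rpl39, a short protein that lines the exit tunnel, read 675.7 and 445.9 in PTIP -/-, against 369.7 and 352.0 in PTIP +/+ (log2 0.61 ± 0.32, SE). It had the smallest unadjusted p of the family in limma, with an adjusted p of 0.999. Both PTIP -/- arrays were above both PTIP +/+ arrays, by 0.87 in number 1 and 0.34 in number 2. Rpl27a read 1716.7 and 1823.4, against 1734.0 and 1095.3 (0.36 ± 0.33, SE), so that its whole difference lay in number 2. Rpl37 read 5419.2 and 4426.4, against 5161.9 and 4399.5 (0.04 ± 0.27, SE), and was -0.14 with centred arrays. Rpl8 read 18300.8 and 18560.8, against 17662.3 and 20955.1 (-0.06 ± 0.26, SE), and was at 0.042 with quantile normalization.

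Of 6 paralogs measured, 5 were tested and 4 had a change below 0 (43.9% of all genes tested). These 4 ran from -0.54 for Rpl22l1 to -0.16 for Rpl7l1. The other one, Rpl39l, is described below by its signals alone. Rpl22l1 had the lowest change of the family and the clearest dependence on the number, reading 5374.2 and 11131.7 in PTIP -/-, against 8755.2 and 14405.7 in PTIP +/+ (log2 -0.54 ± 0.50, SE). It was -0.70 in number 1 and -0.37 in number 2, but number 2 exceeded number 1 in both genotypes, so the genotypes overlapped. Leaving out PTIP -/- replicate 1 gave -0.01 and PTIP +/+ replicate 2 gave -0.18, while leaving out PTIP -/- replicate 2 gave -1.06 and PTIP +/+ replicate 1 gave -0.90. Rpl22, whose protein represses Rpl22l1 in mice, read 19551.7 and 16258.3, against 20419.3 and 17135.9 (-0.07 ± 0.27, SE). Its 2 other probe sets gave 0.36 and 0.12, and it was 0.037 with quantile normalization.

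Rps27l, a p53-inducible paralog of Rps27, read 8522.0 and 11139.7 in PTIP -/-, against 9430.3 and 13738.0 in PTIP +/+ (log2 -0.22 ± 0.33, SE). Its other probe sets, at 7086.9 and 10641.8 against 8512.8 and 13505.2 and at 7967.7 and 10969.0 against 9036.5 and 13841.4, gave -0.30 and -0.26. Within each number it was lower in PTIP -/-, while number 2 exceeded number 1 in both genotypes. Rpl7l1 read 2604.3 and 1907.2, against 3077.5 and 2010.3 (-0.16 ± 0.36, SE), with 0.01 and 0.00 on its other probe sets.

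The tissue-restricted paralogs were at the edge of detection. Rpl39l, known from male germ cells, read 31.3 and 134.4 in PTIP -/-, against 32.5 and 38.9 in PTIP +/+. It passed the filter through PTIP -/- replicate 2 alone, the 1 array of the 4 above 47.68, so its high change was fixed by that passage. Rpl3l, known from heart and skeletal muscle, read 9.4 and 16.9, against 1.8 and 5.5, and no fold is given because all 4 signals lie below the filter. The probe set of Rps16 was likewise below it on all arrays, at 2.0 and 5.0 against 14.9 and 6.1.

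Probe sets bear on how far a single gene can be read. Of the 49 probe sets used, 32 are of the kinds _x_at, _a_at and _s_at, suffixes that mark probes matching more than 1 transcript, and ribosomal protein genes have many near-identical processed pseudogenes, so their single values are uncertain. The median change was -0.19 over these 32 and -0.18 over the 15 tested probe sets of the plain kind. A further 51 single-symbol probe sets of 21 of the genes reached the filter, and 34 of the 51 differed between genotypes in the same direction as the brightest one and 17 in the opposite direction. For 9 of the 13 genes whose probe set had a mean log2 signal below 13, a brighter probe set of 13 or more exists that is annotated to the gene and to other loci.

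Those shared probe sets gave a like picture without naming genes. In all, 110 probe sets are annotated to a ribosomal protein gene and to other loci, 104 of them reached the filter, and they cover 28 genes that have no probe set of their own. Of the 104, 85 had a change below 0 (43.9% of all genes tested) and 75 were lower within both numbers (25.8% of all genes tested). Their median was -0.16, with -0.13 in number 1 and -0.18 in number 2. Relative to equally bright genes the medians were -0.074 in number 1 and -0.11 in number 2. Of the 76 with a mean log2 signal of 13 or more, 74 had a change below 0. Among the 29 other genes as bright as the median ribosomal protein gene or brighter, 89.7% were below 0 and 79.3% lower within both numbers. That is a higher cut than 13, and no share was taken for other genes at 13.

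Start-site sequence was set beside the changes as a description. The 8 genes with the tract at the listed start had a median change of -0.21 and 7 of the 8 were below 0, against -0.19 and 29 of 33 for the genes tested without it. Genes without it include some with a C and T run just off the listed start, such as Rpl12 and Rpl22l1. The motif CCGGAAG, the core bound by ETS factors, was found on either strand between 250 bases before and 50 after a start for 21 of 43 genes, 48.84%, against 9.93% of all genes. The GC-box GGGCGG was found for 58.14% against 38.2%, and AAGATGGC, the core of the YY1 motif, for 9.3% against 3.19%. The motifs were counted separately and may overlap. Genes with CCGGAAG had a median change of -0.13 and those without it -0.23, and genes with GGGCGG had -0.22 and those without it -0.11. No test was made of these differences.

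Sub-groups of known role were small. The 3 tested genes of the mRNA path of the small subunit, Rps2, Rps3 and Rps9, had a median of -0.21. Of the 4 measured genes at the exit tunnel, Rpl4, Rpl19 and Rpl35 were lower within both numbers and Rpl39 higher. Lower within both were 80.9% of the family and 25.8% of all genes tested, and higher within both 4.26% and 33.9%. Of 10 genes known from Diamond-Blackfan anaemia, 9 had a change below 0, with a median of -0.16. That share was near the 89.4% of the whole family, where 43.9% of all genes tested were below 0.

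Other genes of the translation machinery were looked at in lists set with earlier results of these data known. None of their genes passed in limma. For the counts below, 43.9% of all genes tested and 89.4% of ribosomal protein genes had a change below 0. Fau, which encodes a small-subunit protein fused to a ubiquitin-like one, read 14634.4 and 14631.2 in PTIP -/-, against 15921.0 and 16560.7 in PTIP +/+ (log2 -0.15 ± 0.24, SE). Of 16 other genes with oligopyrimidine mRNAs, Fau and several translation factors among them, 12 had a change below 0, with a median of -0.14. Among them Eif3f, an initiation factor subunit, was lowest at 6935.5 and 9683.8 against 10142.7 and 12978.2 (-0.49 ± 0.32, SE). Eef1b2, which recharges the elongation factor that delivers aminoacyl-tRNA, was highest at 0.10 ± 0.29 (SE).

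Over all arrays initiation and elongation factors had medians closer to 0 than the -0.18 of ribosomal protein genes, a difference that was not tested. It was seen in number 2 only. Within number 1 the medians were -0.11 for initiation factors and -0.13 for elongation and release factors, against -0.12 for ribosomal protein genes. Within number 2 they were -0.058 and -0.057, against -0.23. Relative to equally bright genes number 1 gave -0.055 and -0.064, against -0.056, and number 2 gave -0.013 and -0.039, against -0.17. Of 35 initiation factor genes, 23 had a change below 0 and 12 above, with a median of -0.074, from Eif3c at -0.53 ± 0.36 (SE) to Eif5b at 0.25 ± 0.28 (SE). Of 10 elongation and release factor genes, 7 were below 0, with a median of -0.075. Eef2k, the kinase that inhibits translocation, read 641.0 and 868.6 in PTIP -/-, against 1062.6 and 2353.6 in PTIP +/+ (-1.08 ± 0.49, SE). Eef1a1 read 32936.3 and 33991.8, against 33393.3 and 39275.4 (-0.11 ± 0.25, SE), and Eef2, the translocase, was at 0.02 ± 0.32 (SE).

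Of 15 genes of mTOR signalling to translation, 5 had a change below 0 and 10 above, with a median of 0.05, against 0.05 over all genes. Mtor itself was at 0.04 ± 0.27 (SE). Larp1 read 2965.5 and 2800.4 in PTIP -/-, against 3357.1 and 3513.4 in PTIP +/+ (-0.25 ± 0.24, SE), and Rps6kb2, an S6 kinase, 385.3 and 372.9, against 473.8 and 547.9 (-0.43 ± 0.25, SE). Pdcd4, an inhibitor of initiation that S6 kinase marks for destruction, was highest at 0.64 ± 0.40 (SE).

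Mitochondrial ribosomal proteins, which are encoded by a separate set of nuclear genes and translate the mitochondrial genome, gave 59 of 76 genes with a change below 0 and 43 lower within both numbers, against 43.9% and 25.8% of all genes tested. Their median was -0.12, with -0.14 in number 1 and -0.091 in number 2. Relative to equally bright genes these became -0.094 and -0.10, against -0.056 and -0.17 for the cytosolic family. The lowest was Mrps6 at 3501.1 and 2207.0 in PTIP -/-, against 8666.7 and 3150.4 in PTIP +/+ (-0.91 ± 0.60, SE), and the highest Mrpl33 at 0.30 ± 0.35 (SE). The difference between these families was not tested.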

How the data were processed

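Each of the 4 arrays (2 PTIP -/-, 2 PTIP +/+) has a deposited linear intensity for 45101 probe sets. The submitters' processing notes name RMA, but the values do not look like its usual log2 output: they are linear, and the mean without the top and bottom 2% was 500.0 on every array. The summarising software, its version and the build were not given in the sources used here.

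Intensities were taken to log2 after 1 zero had been set to 0.1, and 64 controls were dropped. By the platform annotation 34945 probe sets had 1 gene symbol, 932 several and 9160 none. Symbols were updated by gene number (34741 matched) through the RefSeq table of GRCm38.p6, which also gave the start-site sequences. A gene was represented by its brightest single-symbol probe set. Genes with a mean at or above the 40th percentile of probe-set means, 47.68, were tested (12509) with limma 3.58.1 under R 4.3.3 (lmFit and eBayes, no covariate, 2 residual degrees of freedom, Benjamini-Hochberg over all genes tested). The model was tested on simulated data with known changes. Errors marked SE are those of the moderated fit.

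The members, lists and tests were chosen with earlier results of these data known. Values on every array are given for the 5 lowest and 5 highest changes and the 3 brightest genes of each subunit, the stalk genes and Rpsa, the paralogs, and Rps6, Rps19, Rpl11, Rpl22, Rpl38, Rps27 and Rpl13a. Rpl4, Rpl19, Rpl35 and Rps3 are also named, by their sub-groups. Alternatives were quantile normalization, centring on medians, other filters, the mean of probe sets, dim signals raised to 47.68, other moderation, the replicate block, each array left out, 50 or 500 neighbours, no paralogs, and, added after seeing the data, shared probe sets and the counts of lower genes under each setting.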

Additional observations from a re-analysis of the deposited data

How the results depend on the processing

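Under every setting tried, 0 genes passed in limma, over all genes and among ribosomal protein genes. At an unadjusted p under 0.05 the number of genes ran from 164, without PTIP -/- replicate 2, to 982 with the replicate block, against 286 as reported. With the block 0 ribosomal protein genes passed either (lowest adjusted p = 0.601 in limma, 42 lower, median -0.18), and the labels do not say that a number marks a shared culture or day. Across genes the deviations of same-numbered arrays from their genotype means correlated at 0.686. Quantile normalization brought the median change of ribosomal protein genes to -0.036, to -0.027 in number 1 and -0.082 in number 2, and the count lower within both numbers to 21. Centred arrays gave -0.36, -0.35 and -0.35. Leaving out 1 array, which also leaves the numbers unequal between genotypes, gave medians from -0.23 to -0.12, from -0.145 to -0.0749 relative to equally bright genes, and 39 to 42 genes lower. Of the other settings (filters, raised dim signals, mean of probe sets, 50 or 500 neighbours, no paralogs, shared probe sets added), the mean of probe sets moved the medians most, to -0.13 and to -0.0636 relative to equally bright genes.

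Of 351 values of single genes under alternatives, 319 kept their direction and 32 did not, all of genes with no call. The filters and the replicate block cannot change the difference on a brightest probe set, so agreement under them was fixed in advance. Raising dim signals altered Rpl39l alone. The 319 therefore overstate how stable the directions are. Quantile normalization turned Rps18 (0.0702), Rps10 (0.118), Rps14 (0.111), Rps2 (0.0446), Rpl8 (0.0415), Rpl22 (0.0374) and Rpl13a (0.004) above 0 and Rps27 (-0.0178) below it. Centred arrays turned Rps27 (-0.134) and Rpl37 (-0.138) below 0. The mean of probe sets turned Rps6 (0.0489), Rps4x (0.0597), Rpsa (0.609) and Rpl22 (0.138) above 0. Without single arrays Rps6 ran from -0.73 to 0.0729, Rps14 from -0.12 to 0.0866, Rps27 from -0.34 to 0.43, Rpl37 from -0.11 to 0.19, Rps10 from -0.16 to 0.0651, Rps25 from -0.21 to 0.17, Rpl39l from -0.18 to 1.92, Rpl7l1 from -0.47 to 0.15, Rpl22 from -0.20 to 0.0638, Rpl8 from -0.19 to 0.0614 and Rps27l from -0.50 to 0.0471. The causes were not tested.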
